A study of Mus musculus with 8 samples.

Results

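The RGS genes (regulators of G-protein signalling) were examined in visual cortex of mice with 1 eye removed. Members were all probe sets of the deposited table that the annotation pairs with a single symbol made of Rgs and a number, with Rgs2, Rgs4 and Rgs19 described first. There were 20 such probe sets for 13 genes, of 12422 probe sets and 8251 named genes in all. Of the 20, 16 passed the filter on dim probe sets, which kept probe sets with a mean log2 value above the 40th percentile, a signal of about 110. They stand for 12 genes, and the 4 probe sets left out as dim include the only probe set of Rgs9.

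The deprived group held 4 arrays of visual cortex contralateral to the removed eye, and the non-deprived group 4 arrays of visual cortex ipsilateral to it. All mice were wild-type C57Bl6, lost the eye at postnatal day 20 and were killed at postnatal day 24, so both groups come from operated animals 4 days after surgery and no unoperated cortex was among the samples. The samples of each group carry the numbers 1 to 4. Only 4 mice were operated on and the series text also speaks of pooling, so it is unclear if each array came from a single mouse, and p-values rest on a spread between samples that may be technical only.

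RGS proteins end the signal of G-protein-coupled receptors: their RGS box binds an active G alpha subunit and speeds its hydrolysis of GTP, which returns the subunit to its inactive form. The family is divided into the R4, R7, R12 and RZ subfamilies, which differ in the domains around the box and in the G alpha subunits they act on. In cortical neurons they shorten responses to glutamate, acetylcholine, monoamines and adenosine acting at metabotropic receptors, and Rgs2 is also known as a gene that neurons induce with activity.

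The promoters of Rgs2 and Rgs4 are shown because both hold the core letters of the cyclic AMP response element, through which neuronal activity induces many genes. RefSeq promoters of GRCm38.p6, running from 250 bases before the transcription start to 50 after it, were found for 11 of the 13 genes, 16 promoters in all; Rgs11 and Rgs14 had no entry. Both sequences lie on the minus strand, Rgs2 at chr1:144004100-144004399 and Rgs4 at chr1:169747593-169747892, and are written 5′ to 3′ along the gene, with capitals for TGACG or its reverse complement CGTCA, those core letters.
Rgs2: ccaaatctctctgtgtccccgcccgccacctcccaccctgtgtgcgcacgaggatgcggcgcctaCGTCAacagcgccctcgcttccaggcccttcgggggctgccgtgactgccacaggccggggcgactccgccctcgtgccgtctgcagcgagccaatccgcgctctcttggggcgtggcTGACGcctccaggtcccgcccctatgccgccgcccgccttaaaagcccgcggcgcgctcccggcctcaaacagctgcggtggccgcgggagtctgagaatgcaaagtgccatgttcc
Rgs4: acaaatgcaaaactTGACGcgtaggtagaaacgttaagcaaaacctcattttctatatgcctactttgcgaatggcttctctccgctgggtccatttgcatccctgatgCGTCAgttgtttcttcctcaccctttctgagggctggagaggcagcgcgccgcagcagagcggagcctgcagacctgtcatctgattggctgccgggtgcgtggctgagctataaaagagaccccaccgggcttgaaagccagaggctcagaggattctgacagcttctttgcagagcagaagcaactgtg
Each of the 2 promoters holds TGACG once on each strand. In Rgs2 the forward match lies 67 and the reverse match 185 bases before the transcription start, and in Rgs4 the forward match lies 236 and the reverse match 141 bases before it. A TGACG on either strand is present in 20.8% of all 32851 RefSeq promoters of this length, and in 3 of the 16 Rgs promoters, the third being one of Rgs8. The full palindrome TGACGTCA, which contains TGACG, is present in 1.79% of all promoters and in 0 of the 16. TGANTCA, which includes the AP-1 site, is present in 7.81% and in 0 of the 16, and the CArG box in 1.63% and 0 of the 16. The letters GCGNGGGCG, the Egr-type motif, are present in 5.55% of all promoters, and among the Rgs promoters in that of Rgs2, 176 bases before the start on the reverse strand, and in 1 promoter of Rgs19. These matches describe the letters in the window and no binding was measured.

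Signal is the MAS5 brightness of a probe set, and differences are deprived minus non-deprived on the scale log2(signal + 15.2), where 15.2 is the pseudocount. The fit is limma over all kept probe sets, with p-values adjusted by Benjamini-Hochberg and a threshold of 0.05. A second fit held the sample number constant as a block. The median signal was 182 to 209 over the 8 arrays and the correlation between arrays on the log2 scale was 0.948 to 0.975. The 10th percentile of signal was 17.2 ± 2.70 in deprived and 13.4 ± 0.678 in non-deprived arrays (SD, n = 4 each, exact two-sided permutation p = 0.0286, the smallest possible). The actin 3′ over 5′ signal ratio, which reads RNA integrity, was 1.64 ± 0.239 in deprived and 1.39 ± 0.179 in non-deprived arrays (exact permutation p = 0.171), and that of Gapdh 0.842 ± 0.0345 and 0.898 ± 0.0543 (SD, n = 4 each, exact permutation p = 0.143). These permutations did not hold the sample number constant. Among same-numbered samples the Gapdh ratio was higher in the deprived array in 0 of 4 pairs and the actin ratio in 3 of 4. The 10th percentile and the median signal were each higher in the deprived array in 4 of 4 pairs. The part of the 2 ratios in the results was tested only by taking each as a covariate. For the spread of signal over an array, quantile and cyclic loess scaling were tried as alternative settings, and nothing further was tested. Neuronal markers were present, with a summed signal of 26402 to 33198 in deprived and 27720 to 35733 in non-deprived arrays for 7 measured genes. Of the cortical layer markers 4 were measured and all passed the filter, with 6750 to 8392 in deprived and 5822 to 10548 in non-deprived arrays.

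Members of the family lay on both sides of 0, and none passed the threshold. In limma, 0 of the 16 Rgs probe sets had an adjusted p under 0.05, where 0% of all 7453 tested probe sets did (smallest adjusted p 0.995). At an unadjusted p under 0.05 there were 3 Rgs probe sets, 1 lower (Rgs2) and 2 higher (Rgs11 and Rgs19), against a background of 2.67% of all tested probe sets, 1.22% lower and 1.45% higher. With the sample number as a block, there were 4, with a probe set of Rgs10 added to the lower side, against a background of 7.03% (3.65% lower and 3.38% higher), and again 0 passed the adjusted threshold. A difference of any size lay below 0 for 9 of the 16 and above 0 for 7, where 45.1% of all tested probe sets lay below 0 and 54.9% above it. The median difference of the 16 was -0.05 on the log2 scale and that of all tested probe sets 0.02, and the median size without sign was 0.156 and 0.127.

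**Figure D1:**
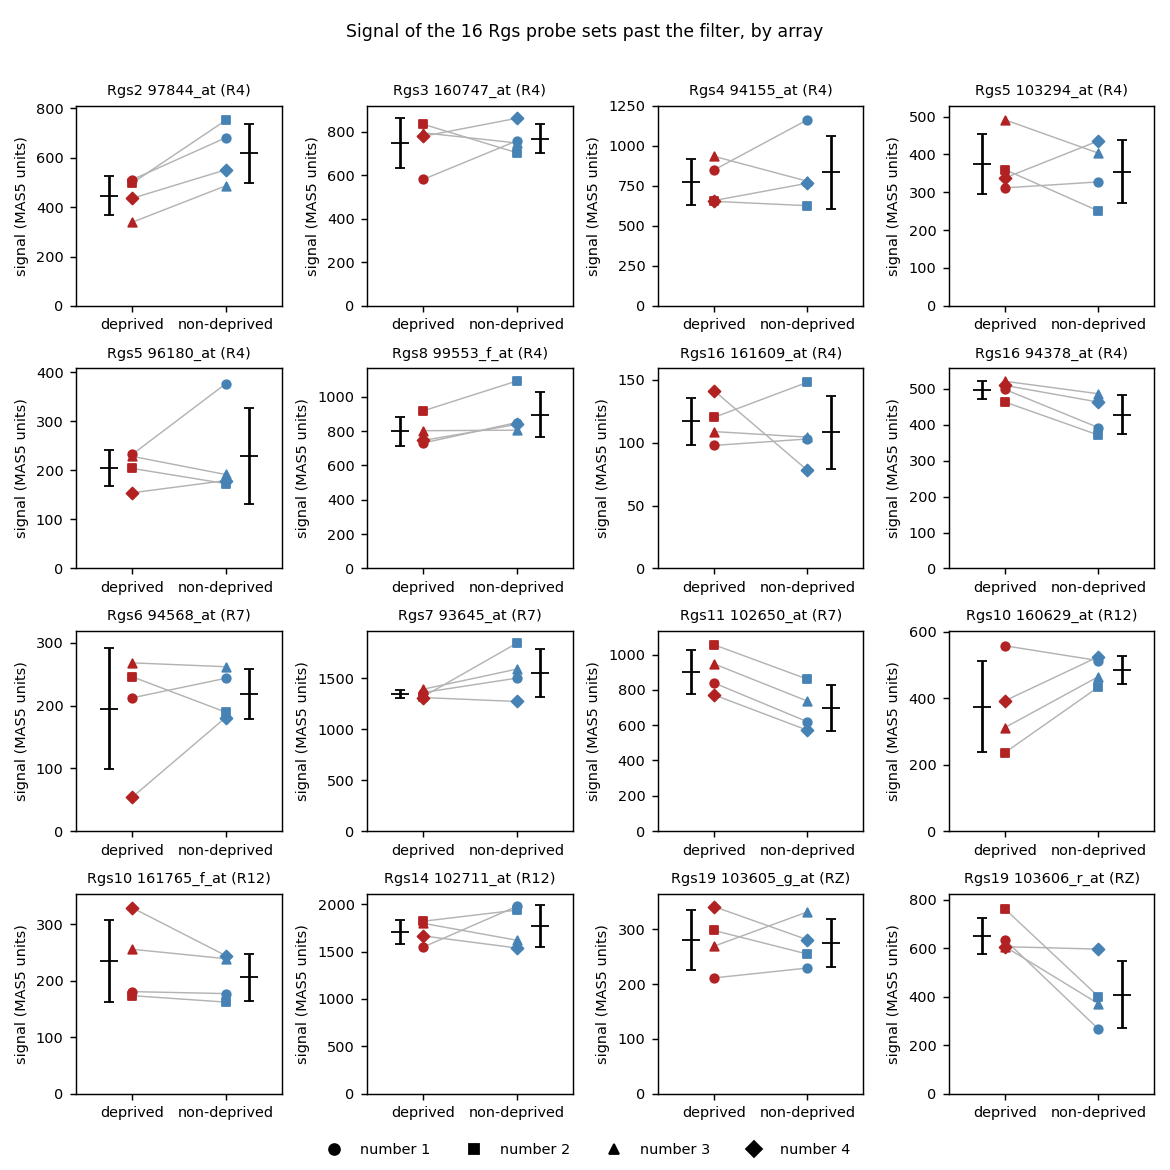
Signal in MAS5 units of each of the 16 Rgs probe sets that passed the filter, with deprived arrays in red on the left of each panel and non-deprived arrays in blue on the right; marker shapes give the sample number, grey lines join the same number, and black bars are the mean and SD of 4 arrays. Every line of Rgs2 runs upward to the non-deprived side and every line of Rgs11 downward, while the lines of Rgs4 cross.

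Rgs2 encodes an R4 member that acts preferentially on G alpha q and so restrains receptors that signal through phospholipase C. Its signal was 511, 498, 339 and 436 in deprived samples 1 to 4, against 681, 752, 486 and 551 in non-deprived samples 1 to 4. The deprived value was the lower of the same-numbered samples in 4 of 4 pairs, but the groups overlapped, since deprived samples 1 and 2 lay above non-deprived sample 3. The means were 446 ± 78.5 in deprived and 618 ± 121 in non-deprived cortex (SD, n = 4 each). The log2 difference of signal plus pseudocount was -0.45 ± 0.19 (SE), a fold of 0.730 on that scale with a 95% interval of 0.551 to 0.968 (limma adjusted p = 0.995). With the sample number as a block the SE was 0.12, and the adjusted p was 0.638. Differences within pairs ran from -0.58 in pair 2 to -0.33 in pair 4. The unadjusted p was under 0.05 in 4 of the 8 fits that left out an array, and was not without deprived replicate 3 or 4 or non-deprived replicate 1 or 2. With the Gapdh ratio as a covariate the difference was -0.31, and the unadjusted p was again not under 0.05.

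Beside Rgs2, 6 activity-induced genes are given, which were chosen with their direction in these data known, so the direction they share with Rgs2 supports nothing. Fos, Egr1, Junb, Nr4a1, Bdnf and Nptx2 had log2 differences of -0.89, -0.71, -0.68, -0.83, -0.86 and -0.59, each lower in 4 of 4 pairs, and none passed over all probe sets (limma adjusted p = 0.995 for each). With the sample number as a block, the limma adjusted p was 0.116 for Fos, Junb, Nr4a1 and Bdnf. It was 0.152 for Egr1 and 0.347 for Nptx2, so none passed there either. The Rgs2 difference of -0.45 was smaller in size than all 6, a comparison that was not tested. Not all such genes ran lower: Jun, another immediate early gene, named after its value was seen, had a log2 difference of 0.32 (limma adjusted p = 0.995). Over the kept probe sets, 6.92% were lower in 4 of 4 pairs, and of the 16 Rgs probe sets 2 were, Rgs2 and Rgs8.

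**Figure D2:**
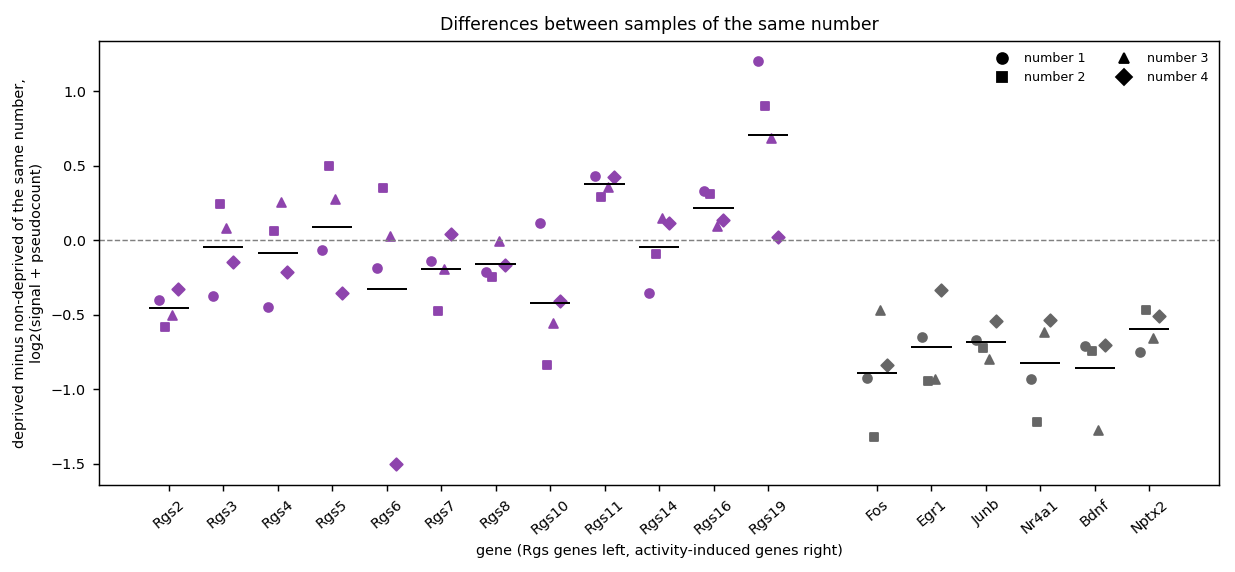
Log2 difference of signal plus pseudocount, deprived minus non-deprived, within each pair of same-numbered samples (marker shapes) for 12 Rgs genes, each by its brightest probe set past the filter, and for 6 activity-induced genes; black lines are the mean difference. Rgs2 lies at -0.58 to -0.33 in all pairs, Rgs11 at 0.29 to 0.43, and Rgs19 at 0.02 to 1.20.

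Rgs4, an R4 member abundant in cortical pyramidal neurons that acts on G alpha i and G alpha q, did not differ beyond its spread. Its signal was 850, 653, 935 and 658 in deprived samples 1 to 4, against 1163, 626, 779 and 766 in non-deprived samples 1 to 4. The deprived value was lower in pairs 1 and 4 and higher in pairs 2 and 3, and the highest and the lowest value of the 8 were both non-deprived. The means were 774 ± 141 in deprived and 834 ± 230.4 in non-deprived cortex (SD, n = 4 each). The log2 difference was -0.09 ± 0.20 (SE), with a 95% interval of -0.52 to 0.35 (limma adjusted p = 0.995). With the block the interval was -0.39 to 0.22, so the Rgs2 estimate, -0.45, lay inside the unblocked interval and outside the blocked one. The blocked interval of Rgs2 itself, -0.73 to -0.18, overlapped that of Rgs4. A difference between Rgs2 and Rgs4 was not tested. Without non-deprived replicate 1 the difference was 0.08.

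Rgs19, known also as GAIP and the only RZ member measured, acts on G alpha i subunits and binds the adaptor protein GIPC. Its 3 probe sets gave different answers. The brightest, 103606_r_at, had 635, 762, 607 and 607 in deprived samples 1 to 4, against 267, 401, 371 and 596 in non-deprived samples 1 to 4. The groups did not overlap, but deprived sample 4 and non-deprived sample 4 were nearly level. Of the kept probe sets, 1 of the 16 Rgs probe sets had groups that did not overlap, where 2.04% of all 7453 did. The means were 652 ± 74.1 in deprived and 409 ± 138 in non-deprived cortex (SD, n = 4 each), and the log2 difference was 0.70 ± 0.21 (SE), a fold of 1.63 with a 95% interval of 1.18 to 2.25 (limma adjusted p = 0.995, and with the block adjusted p = 0.601). Differences within pairs were 1.20, 0.90, 0.69 and 0.02 for pairs 1 to 4, a spread far wider than that of Rgs2. It was the 29th smallest p of the 7453. The unadjusted p stayed under 0.05 in all 8 fits that left out an array, with differences of 0.53 without non-deprived replicate 1 to 0.90 without non-deprived replicate 4.

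The second Rgs19 probe set, 103605_g_at, had 212, 298, 269 and 342 in deprived samples 1 to 4, against 230, 255, 332 and 281 in non-deprived samples 1 to 4. The groups overlapped fully, with a log2 difference of 0.02 ± 0.19 (SE), which was -0.0371 after quantile scaling and -0.0343 after cyclic loess. The third, 103604_at, was dim and left out by the filter, with 9.10 to 35.3 in deprived and 8.50 to 67.1 in non-deprived samples. The higher Rgs19 value therefore rests on 1 of its 3 probe sets. In the naming of these arrays the suffix r marks a set for which some probe selection rules were dropped, and the suffix g a set with probes chosen to be shared within a group of sequences. Gipc1, the GIPC gene, had a log2 difference of 0.08.

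Of the other R4 members, Rgs16, which acts on G alpha i and G alpha q, was measured by 2 probe sets. The brighter, 94378_at, had 498, 463, 521 and 509 in deprived samples 1 to 4, against 392, 371, 486 and 463 in non-deprived samples 1 to 4. It was higher in 4 of 4 pairs with overlapping groups, a log2 difference of 0.22 ± 0.15 (SE). The dimmer, 161609_at, averaged 117 ± 18.6 in deprived and 108 ± 29.1 in non-deprived cortex (SD, n = 4 each), close to the filter.

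Rgs8, known for its expression in cerebellar Purkinje cells, averaged 799 ± 84.9 in deprived and 896 ± 131 in non-deprived cortex (SD, n = 4 each). It was lower in 4 of 4 pairs, with pair differences of -0.25 to -0.0055 and a log2 difference of -0.16 ± 0.15 (SE). Without non-deprived replicate 2 the difference was -0.061, with the Gapdh ratio as a covariate -0.086, and with the actin ratio -0.26. Its probe set, 99553_f_at, carries the suffix f, which marks probes shared with a family of similar sequences. Rgs3, whose long form carries a PDZ domain, averaged 747 ± 113 in deprived and 767 ± 66.7 in non-deprived cortex, with 2 pairs in either direction.

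Rgs5, a marker of brain pericytes, had 2 probe sets on opposite sides of 0. The first, 103294_at, averaged 375 ± 79.9 in deprived and 354 ± 82.6 in non-deprived cortex, and the second, 96180_at, 205 ± 36.0 and 230.3 ± 98.0 (SD, n = 4 each). The second was set apart by non-deprived sample 1, at 377 where the other 3 lay at 173 to 192; without it the difference was 0.15, against -0.10 with it. Mural cell markers, 4 of 8 measured past the filter, had a summed signal of 669 to 867 in deprived and 678 to 799 in non-deprived arrays, overlapping as Rgs5 did. In bulk tissue, fewer cells of a type and less RNA per cell cannot be told apart.

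The R7 members work as dimers with the G beta 5 subunit. Rgs11, known from its place in the ON bipolar cells of the retina, had 839, 1055, 947 and 771 by its brighter probe set in deprived samples 1 to 4, against 619, 860, 736 and 571 in non-deprived samples 1 to 4. It was higher in 4 of 4 pairs by 0.29 to 0.43 on the log2 scale, the narrowest range of pair differences among Rgs2, Rgs11 and Rgs19, though the groups overlapped. The log2 difference was 0.38 ± 0.17 (SE), a fold of 1.30 with a 95% interval of 1.01 to 1.67 (limma adjusted p = 0.995, and with the block SE 0.11 and adjusted p = 0.692). Of the kept probe sets, 8.95% were higher in 4 of 4 pairs, and of the 16 Rgs probe sets 4 were: Rgs11, Rgs16 (94378_at), Rgs19 (103606_r_at) and Rgs10 (161765_f_at). The unadjusted p was under 0.05 in 2 of the 8 fits that left out an array, those without deprived replicate 4 or non-deprived replicate 2, and was not with the actin ratio or the Gapdh ratio as a covariate or without the intensity trend. The difference was as small as 0.26, with the actin ratio. A dim second probe set of Rgs11, with 17.0 to 46.5 in deprived and 25.5 to 36.4 in non-deprived samples, was left out by the filter.

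Rgs7, a neuronal R7 member that controls G-protein-gated potassium channels, averaged 1347 ± 37.8 in deprived and 1552 ± 236 in non-deprived cortex (SD, n = 4 each). It was lower in 3 of 4 pairs, with a log2 difference of -0.19 ± 0.14 (SE). Without non-deprived replicate 2 it was -0.10, and with the Gapdh ratio as a covariate -0.098. Rgs6 had 212, 246, 268 and 54.0 in deprived samples 1 to 4, against 244, 190, 262 and 181 in non-deprived samples 1 to 4. Deprived sample 4 stood far below the others, and without it the difference was 0.15, against -0.33 with it. Fitted with the actin ratio as a covariate it was -0.88, with the adjusted p above the threshold in each fit. Rgs9, the striatal member, was dim in cortex, with 16.8 to 36.9 in deprived and 7.40 to 50.4 in non-deprived samples, and was not in the fit. The gene of their shared partner, Gnb5, had a log2 difference of 0.11.

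**Figure D3:**
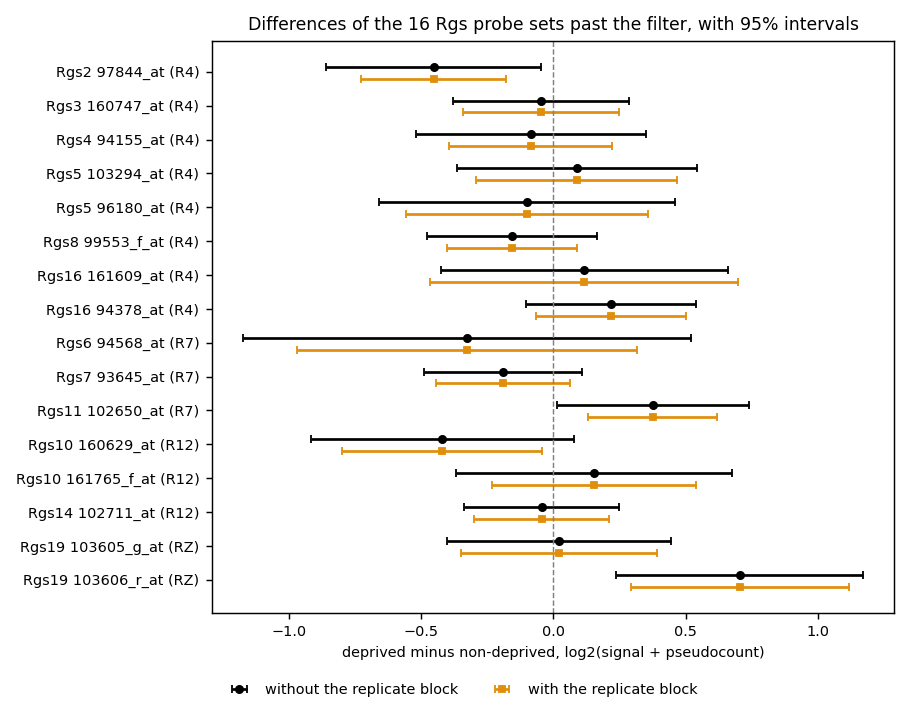
Log2 difference of signal plus pseudocount, deprived minus non-deprived, for the 16 Rgs probe sets past the filter, with 95% intervals from limma without (black circles) and with (orange squares) the sample number as a block. The intervals of Rgs2 lie below 0 and those of Rgs11 and the brightest Rgs19 probe set above it in both fits; these intervals are not adjusted for the 7453 tests.

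The R12 members were Rgs10, a short RGS protein of neurons and microglia, and Rgs14, a scaffold that also binds Ras and limits plasticity in hippocampal area CA2. Rgs10 was measured by 3 probe sets. The brightest, 160629_at, had 557, 236, 312 and 392 in deprived samples 1 to 4, against 513, 433, 465 and 525 in non-deprived samples 1 to 4. It was lower in 3 of 4 pairs and higher in pair 1, with a log2 difference of -0.42 ± 0.23 (SE; limma adjusted p = 0.995, and with the block 0.703). Leaving out deprived replicate 2 gave -0.23, and taking the actin ratio into the fit gave -0.24. The second, 161765_f_at, went the other way in 4 of 4 pairs, with 235 ± 73.0 in deprived and 206 ± 42.1 in non-deprived cortex (SD, n = 4 each) and a log2 difference of 0.15 ± 0.24 (SE), and the third was dim. Microglia markers, 6 of 8 measured past the filter, had a summed signal of 5789 to 6820 in deprived and 6217 to 7037 in non-deprived arrays, with 3 genes below and 3 above 0 and a list median of 0.04. The microglia sum was higher in deprived cortex in pair 3 alone, and the brightest Rgs10 probe set in pair 1 alone. The part of microglia in the Rgs10 values was not tested. Rgs14 averaged 1707 ± 127 in deprived and 1768 ± 221 in non-deprived cortex (SD, n = 4 each), with a log2 difference of -0.04 ± 0.13 (SE). No hippocampus marker of the 4 measured passed the filter.

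Of the 5 Rgs genes with several probe sets, Rgs5, Rgs10 and Rgs19 had probe sets on both sides of 0, and Rgs11 and Rgs16 on one side. Within groups the median SD of the 16 Rgs probe sets was 0.272 on the log2 scale, against 0.273 for all tested probe sets. In the RefSeq annotation 6 of the 13 measured genes lie on chromosome 1, where the nearest protein-coding neighbours include Rgs4 beside Rgs5 and Rgs8 beside Rgs16. The neighbours Rgs8 and Rgs16 lay on opposite sides of 0, at -0.16 and 0.22. Rgs1, Rgs12, Rgs13, Rgs17, Rgs18, Rgs20, Rgs21 and Rgs22 were not analysed here.

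**Figure D4:**
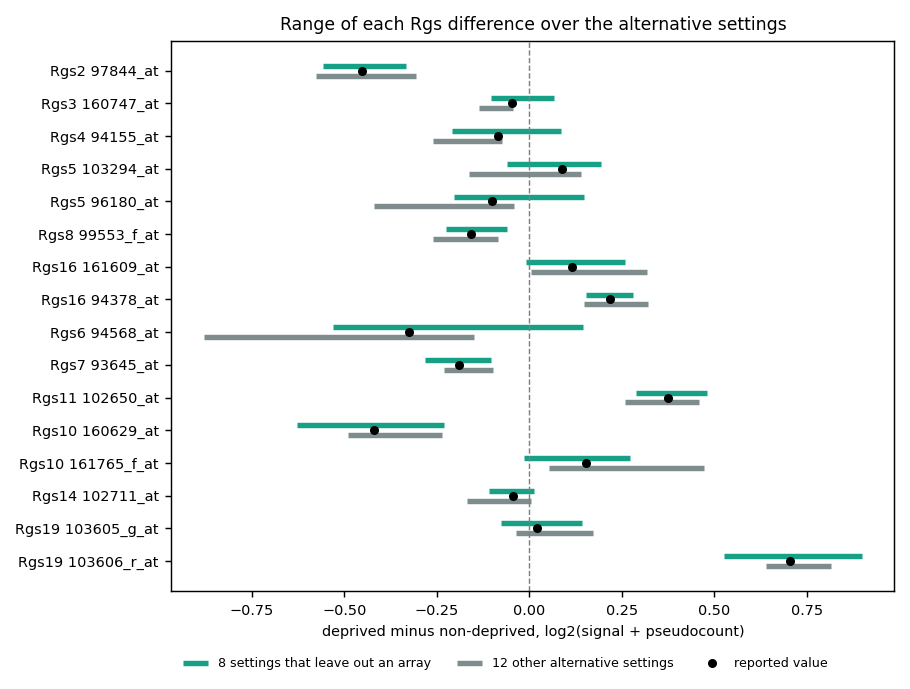
Range of the log2 difference, deprived minus non-deprived, of each of the 16 Rgs probe sets over the 8 settings that leave out an array (green) and the 12 other alternative settings (grey), with the reported value as a black dot. The ranges of Rgs2, Rgs7, Rgs8 and Rgs10 (160629_at) stay below 0, those of Rgs11, Rgs16 (94378_at) and Rgs19 (103606_r_at) above it, and the other 9 reach both sides.

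The genes around the RGS step were examined through 9 lists of G-protein subunits, receptors, modulators and effectors. Of 157 genes on these lists 105 were measured and 75 passed the filter. Without the block, none of the 75 passed the adjusted threshold, and 1 was lower and 2 were higher at an unadjusted p under 0.05. Of the 75, 25 lay below 0, where 2615 of the 5675 genes past the filter did. The background at an unadjusted p under 0.05 was 2.57% of the 5675 genes past the filter, against 4.0% of the 75.

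Among receptors that couple to G alpha q, the target of Rgs2, the alpha-1B adrenergic receptor gene Adra1b averaged 93.2 ± 19.7 in deprived and 151 ± 13.9 in non-deprived cortex (SD, n = 4 each). It was lower in 4 of 4 pairs without overlap, a log2 difference of -0.63 ± 0.23 (SE; limma adjusted p = 0.995). Its signal lay below the filter level in the deprived group, and it is the 1 gene of the 75 counted as lower without the block. Of all 7453 kept probe sets, 2.04% had groups that did not overlap. Hrh1, a histamine receptor gene, lay at 0.38, and 3 of the 4 members of that list past the filter lay above 0. Of 13 Gi-coupled receptor genes past the filter 3 lay below 0, with a list median of 0.09 where all genes past the filter had 0.02. The nearest to the threshold were Adra2c, an alpha-2 adrenergic receptor gene, at -0.40, and the neuropeptide Y receptor gene Npy2r, at 0.37. The 5 Gs-coupled receptor genes had a median of 0.22, with the serotonin receptor gene Htr7 at 0.22 and the VIP receptor gene Vipr1 at 0.40.

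The 10 G alpha subunit genes had a median of 0.04, with Gna11 of the Gq class at 0.26 and Gna12 next at 0.14. The 8 G beta and gamma genes had a median of 0.02, with Gng10 at -0.27 and Gnb1 at -0.15. All 3 measured genes of the receptor kinases and arrestins lay below 0, Grk5 at -0.28 and Arrb1 at -0.16. Of the 9 other RGS-domain and modulator genes, Pcp2, whose protein binds G alpha i, was at 0.68, and Axin2, a Wnt pathway scaffold with an RGS domain, at 0.51, each higher in 3 of 4 pairs. The 7 effectors of G alpha q and G beta gamma had a median of 0.07, with Prkce, a protein kinase C gene, at -0.27 and the phospholipase gene Plcb1 at 0.20. The 16 cyclic AMP effectors had a median of 0.05, with the protein kinase A subunit gene Prkaca at -0.28 and the adenylyl cyclase gene Adcy8 at 0.32. The genes named were the 2 with the smallest limma p in each list, and the adjusted p was 0.995 for each without the block. With the sample number as a block, Adra1b, Adra2c, Prkce and Prkaca were lower at an unadjusted limma p under 0.05. Pcp2, Axin2, Npy2r and Gna11 were higher at that level, and the blocked adjusted p was 0.703 for each gene on either side. The blocked background at that level was 7.03% of all tested probe sets.

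The genes most like each of the first 3 members were found by Pearson's correlation of log2 values over the 8 arrays among 6750 other named probe sets. For Rgs2 they were Ifrd1 (0.955), Cxxc5 (0.952) and Cinp (0.947), for Rgs4 Rfk (0.949), Fkbp1b (0.939) and Norad (0.935), and for the brightest Rgs19 probe set Sec23b (0.978), Slc30a3 (0.930) and Eif3f (0.910). These are the highest of 6750 values over 8 arrays that share 2 groups and 4 sample numbers, so they describe these arrays and carry no test. Their own log2 differences were -0.53, -0.20 and -0.26 for those like Rgs2, -0.08, -0.08 and 0.03 for those like Rgs4, and 0.28, 0.15 and 0.80 for those like Rgs19.

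Markers of other cells were set beside the members that were higher or lower in 4 of 4 pairs. Leukocyte markers, of which 2 of 9 measured passed the filter, had a summed signal of 296 to 490.1 in deprived and 191 to 400 in non-deprived arrays. The sum was higher in 4 of 4 pairs, but of its genes only Ms4a1 was. Cd79a was higher in 3 of 4 pairs and lower in pair 2, with signals of 79.3 to 298 in deprived and 72.8 to 216 in non-deprived arrays. Thalamus markers, 4 of 5 past the filter, had 2007 to 2372 in deprived and 1815 to 2363 in non-deprived arrays. That sum was also higher in 4 of 4 pairs, but of its genes only Tcf7l2 was. Lef1 and Ramp3 were each higher in 3 of 4 pairs, and Prkcd in 1 of 4. The part of leukocyte and thalamus markers in the values of Rgs11, Rgs16, Rgs19 and Rgs10 (161765_f_at) was not tested. Endothelial markers had 2116 to 3149 in deprived and 2434 to 3295 in non-deprived arrays, striatum markers 980.4 to 1581 and 1145 to 2316, blood markers 8059 to 13364 and 7940 to 14628, astrocyte markers 8092 to 11524 and 7813 to 11600, and oligodendrocyte markers 19177 to 22134 and 17619 to 24367, all overlapping between groups. The endothelial and striatum sums were higher in deprived arrays in 1 of 4 pairs, the blood and oligodendrocyte sums in 2 and the astrocyte sum in 3. The neuron sum was higher in 1 of 4 pairs, with 5 genes below 0 and 2 above. The endothelial list had 3 genes below 0 and 5 above. The part of these cells in the values of Rgs2 and Rgs8, lower in 4 of 4 pairs, was not tested. None of the 3 measured choroid plexus markers passed the filter.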

How the data were processed

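Total RNA of visual cortex was hybridised to 1-colour short-oligonucleotide arrays, 4 deprived and 4 non-deprived. The deposited values are signal intensity per probe set, made by the authors with MAS5, per the submitters' processing notes; no version or parameter is given in the sources used here. The deposited arrays share a 2% trimmed mean of about 500.3, so values are relative to the total of an array. The number of arrays limits the precision, and 0 sample columns were left unused.

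Arrays were rescaled to 1 trimmed mean, 66 control probe sets removed, and log2(signal + 15.2) taken, with the 10th percentile of signals as pseudocount, which understates changes of dim genes. Probe sets above the 40th percentile of mean log2 value were kept (7453 of 12422). Symbols came from the platform annotation (10833 probe sets with 1 symbol, 396 with several, 1193 with none), 10817 updated to GRCm38.p6 names by Entrez identifier. The comparison of groups used limma 3.58.1 under R 4.3.3 (eBayes with an intensity trend, two-sided, Benjamini-Hochberg over all kept probe sets, threshold 0.05), and differences are deprived minus non-deprived. The code was tested on simulated data. Figures used matplotlib 3.10.9 in Python 3.11.15.

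Same-numbered samples deviated together (correlation of deviations from group means 0.158 to 0.422, against -0.271 to 0.123 for different numbers; limit 0.1), so the number was taken to pair samples and blocked values are given where they matter; the labels do not say that a number is a mouse. The members and gene lists were chosen with earlier results of these data known. Named were all Rgs probe sets, the 2 genes of smallest p per G-protein list, the 3 most correlated genes of Rgs2, Rgs4 and Rgs19, and 6 activity-induced genes; Gipc1 and Gnb5 were named in addition, as known partners.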

Additional observations from a re-analysis of the deposited data

Results flagged for a closer look

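The spread of the 4 values within a group was examined for 96 groups of Rgs probe sets, other named genes and array measures, and in 8 of them 1 sample stood far from the other 3, where chance gives about 4.8. The gap to the nearest other sample, divided by the range of the 4, was 0.872 for Rgs5 (96180_at), set by non-deprived sample 1, and 0.845 for Rgs6, set by deprived sample 4. It was 0.847 for the dim Rgs10 probe set 103384_at, set by non-deprived sample 3, and 0.923 for the dim Rgs19 probe set 103604_at, set by deprived sample 4. Outside the family it was 0.977 for Arrb1 (deprived sample 3), 0.838 for Junb (deprived sample 4), 0.837 for Nptx2 (deprived sample 1) and 0.892 for Gna12 (non-deprived sample 2). Rgs2, Rgs4 and the brightest probe sets of Rgs11 and Rgs19 had no such sample.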

How the results depend on the processing

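Over 20 alternative settings, 0 Rgs probe sets and 0 of all probe sets passed the adjusted threshold. The differences of Rgs2 (-0.56 to -0.33 with an array left out, -0.58 to -0.31 otherwise) and of the brightest Rgs19 probe set (0.53 to 0.90, and 0.64 to 0.82) kept their sign in all 20, as did 5 other Rgs probe sets, while 9 of the 16 changed sign at least once. Rgs4 ranged from -0.21 to 0.0844 with an array left out. The number of Rgs probe sets at an unadjusted p under 0.05, 3 as reported, was 4 with the replicate block and 1 with the Gapdh ratio as a covariate, and 1 to 3 with an array left out, the 1 being without deprived replicate 3 or non-deprived replicate 1. Over all probe sets, 199 as reported, it was 491 with no filter, 332 with a filter at the 20th percentile, 368 with array weights, 524 with the replicate block and 535 with that block as a random effect, and 133 to 429 with an array left out (429 without deprived replicate 4, 311 without deprived replicate 1, against 133 without non-deprived replicate 4). The block changed no call at the adjusted threshold. Signs turned for Rgs5 (103294_at, -0.16 with the Gapdh ratio), Rgs14 (0.004 with array weights) and Rgs19 103605_g_at (-0.0371 with quantile scaling, -0.0343 with cyclic loess, -0.0140 with array weights and -0.0248 with the Gapdh ratio). With an array left out, ranges across 0 were -0.10 to 0.0664 for Rgs3, -0.0607 to 0.19 and -0.20 to 0.15 for the probe sets of Rgs5, -0.53 to 0.15 for Rgs6, -0.0156 to 0.27 for Rgs10 (161765_f_at), -0.11 to 0.0115 for Rgs14, -0.0094 to 0.26 for Rgs16 (161609_at) and -0.0765 to 0.14 for Rgs19 (103605_g_at). The causes were not tested. Dim probe sets, near the 10th percentile of signal, limit what can be said of Rgs9.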
